A study of Mus musculus with 4 samples.

Results

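The CD28 family receptors and their ligands are 10 genes that set how strongly a T cell answers antigen. They comprise the receptors Icos, Cd28, Ctla4, Pdcd1 and Btla, and the ligands Icosl, Cd80, Cd86, Cd274 and Pdcd1lg2. The genes were chosen by name, and every probe set annotated to 1 of them alone was taken, which gave 16 of the 22690 probe sets on the array and covered 9 of the 10 genes. Btla had no probe set naming it alone and is not analysed here. RNA from CD4 cells was measured on Affymetrix MOE430A arrays, 2 from san/san (sanroque) mice and 2 from +/+ (wild type) mice. Sanroque is a recessive variant from an ENU mutagenesis of C57BL/6 males, found through antinuclear autoantibodies, and its mutation lies in Rc3h1, the gene of the RNA-binding protein Roquin-1. Neither the age of the mice nor any treatment is given in the sources used here. The record of each number 1 array names sorted T cells, and that of wild type array 2 carries the unexplained letters CBA, so an effect of strain background and an effect of the mutation cannot be told apart. Whether same-genotype arrays came from different mice is not stated, so the spread behind each p-value may be technical only. The number 1 arrays were hybridised on 1 day and the number 2 arrays on another, called day 1 and day 2 here.

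Cd28 is present on resting T cells, binds Cd80 and Cd86 on antigen-presenting cells, and delivers the signal that must accompany the antigen receptor. Ctla4 competes for the same ligands and restrains the response, and Pdcd1 (PD-1), bound by Cd274 (PD-L1) and Pdcd1lg2 (PD-L2), recruits phosphatases that oppose antigen receptor signalling. Icos appears after activation, binds Icosl, and is needed by the follicular helper subset that assists B cells in germinal centres; its mRNA is a known target of Roquin-1.

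Values are deposited signals on a linear scale, which had been scaled between arrays, with trimmed means of 99.59 to 99.97 and medians of 30.8 to 40.4. With 2 arrays per genotype, precision is limited throughout. Cd4 read 533.3 and 613.5 in wild type and 585.9 and 570.2 in sanroque, with a log2 fold change of 0.02 (limma adjusted p = 0.991). Of 8 T cell identity genes, among them Cd3d, Cd3e and Cd3g, 0 passed in either direction by limma, also with the day as a block. Of all genes 0.776% rose and 0.331% fell, and 3.92% and 2.13% with the block. At an unadjusted p under 0.05, 0 of the 8 were higher and 2 lower, against 6.16% and 3.44% of all genes. The 2 were Cd247 (log2 change -0.415) and Cd5 (-0.384), whose genotypes did not overlap. The median log2 change of the 8 was -0.10.

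In sanroque CD4 cells the transcripts of Icos and Pdcd1 were 2.79 to 4.84 times as bright as in wild type, those of Cd28 were close to level, and no ligand transcript passed the test. Of the 16 probe sets of the family, 11 probe sets of 8 genes had a mean signal of at least 21.3 over the 4 arrays and were tested. By limma, with p-values adjusted after Benjamini and Hochberg over all 13579 tested probe sets and a threshold of 0.05, 3 of the 11 rose, both probe sets of Icos and the single probe set of Pdcd1, and 0 fell. At an unadjusted p under 0.05, 4 were higher and 1 was lower, where 5.62% and 4.27% of all tested probe sets were. Across all tested probe sets 0.67% rose and 0.39% fell. In the fit that blocks on the day, 4 of the 11 rose and 0 fell, beside 3.59% and 2.68% of all probe sets. The genotypes did not overlap at 7 of the 11, with sanroque higher at 6 and lower at 1; over all probe sets this was so for 21% (higher) and 17.7% (lower), so a separation of the genotypes without a call is common in this table. The median log2 fold change was 1.13 over the 6 receptor probe sets and 0.26 over the 5 ligand probe sets tested, against 0.015 over all. In such bulk samples a larger share of cells of a type and more RNA per cell cannot be told apart.

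**Figure D1:**
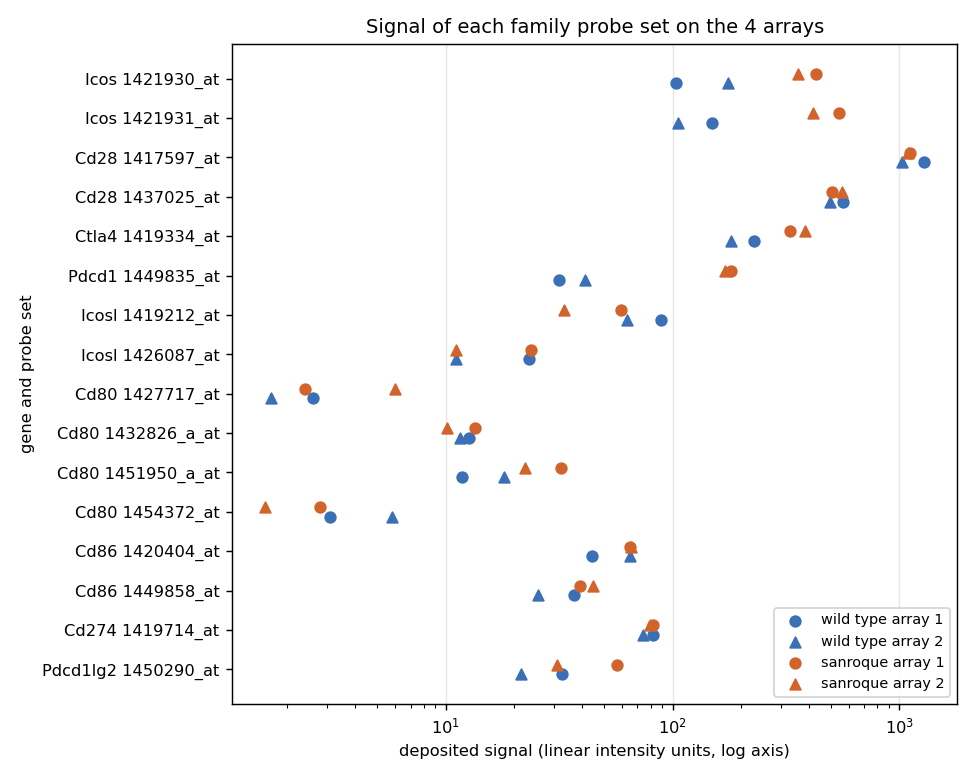
Deposited signal (linear intensity units on a log axis) of all 16 family probe sets, with 1 point per array; blue points are wild type, orange points sanroque, circles array 1 and triangles array 2. The sanroque points of both Icos probe sets (356.4 to 538.8) and of Pdcd1 (171 and 180.1) lie clear of the wild type points (104 to 176.2 and 31.5 and 41), while the points of Cd28 and Cd274 are mixed.

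Icos was measured by a pair of probe sets, which gave the same direction with different spread. Probe set 1421931_at read 149 and 105.6 on wild type arrays 1 and 2 and 538.8 and 417.6 on sanroque arrays 1 and 2. The lower sanroque array was well over the higher wild type array, and the mean rose 3.76-fold, from 127.3 ± 30.7 to 478.2 ± 85.7 (SD, n = 2 arrays each). On the log2(signal + 6) scale, on which all log2 values here are given, the change was 1.87 with a standard error of 0.215 (95% confidence interval 1.39 to 2.34, limma adjusted p = 0.00143), the 28th highest of the 13579 probe sets. Probe set 1421930_at read 104 and 176.2 in wild type and 426.6 and 356.4 in sanroque, without overlap, a 2.79-fold rise of the mean. Its log2 change was 1.48 with a standard error of 0.24 (limma adjusted p = 0.0143), the 58th highest. The wild type arrays stood in opposite order in the probe sets, array 1 being the brighter in 1421931_at and the dimmer in 1421930_at. Within days the former therefore differed by 1.81 and 1.92 between genotypes, and the latter by 1.98 on day 1 and 0.99 on day 2. Without a trend of the variance on the mean neither passed (adjusted p = 0.0635 and 0.193), and without the filter on dim probe sets 1421930_at did not (0.0872).

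Cd28, the constitutive receptor, was bright and level. Its probe set 1417597_at read 1289.4 and 1031.3 in wild type and 1109.6 and 1092.5 in sanroque, and 1437025_at read 564.2 and 495.1 in wild type and 505.9 and 555.5 in sanroque. In both, the sanroque signals lay between those of the wild type arrays. The log2 changes were -0.07 and 0.00 (limma adjusted p = 0.962 and 0.998), each lower in sanroque on day 1 and higher on day 2. Their 95% confidence intervals, -0.47 to 0.33 and -0.38 to 0.39, lie below those of Icos, of which the lower began at 0.95; the difference between the genes was not tested. The sign of these small values turned with the scaling: 1417597_at was 0.008 after quantile normalization, and 1437025_at -0.086 with each array centred on its median.

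Cd28, Ctla4 and Icos are adjacent on mouse chromosome 1, in this order among protein-coding genes of the RefSeq annotation of assembly GRCm38.p6. Along this cluster the log2 changes were thus near 0 for Cd28, 0.78 for Ctla4 and 1.48 to 1.87 for Icos. Of the next 2 protein-coding genes on either side, Raph1, Abi2, Pard3b and Nrp2, the last, a semaphorin receptor gene on the Icos side, was the only 1 with a tested probe set, with 28.3 and 21.3 in wild type, 39.9 and 33.7 in sanroque and a log2 change of 0.48 (limma adjusted p = 0.751).

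Ctla4, the inhibitory counterpart of Cd28, read 229 and 181.7 in wild type and 330.4 and 381.8 in sanroque. Both sanroque arrays were brighter than both wild type arrays, and the ratio of the means, 356.1 ± 36.4 over 205.3 ± 33.5 (SD, n = 2 each), was 1.73. The log2 change of 0.78 (standard error 0.189, 95% confidence interval 0.36 to 1.20) did not pass by limma (adjusted p = 0.103). With the day as a block it passed (adjusted p = 0.00159), the differences being 0.52 on day 1 and 1.05 on day 2. Without wild type array 1 it passed too, at 0.94, but wild type was then a single array. Over the alternatives the adjusted p ran up to 0.494, the value with median centring.

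Pdcd1, the PD-1 gene, was dim in wild type and bright in sanroque. It read 31.5 and 41 in wild type and 180.1 and 171 in sanroque, where both arrays were over 4 times the brighter wild type array. The mean went from 36.25 ± 6.72 to 175.6 ± 6.43 (SD, n = 2 each), which is 4.84-fold. The log2 change of 2.11 (standard error 0.22, 95% confidence interval 1.63 to 2.60, limma adjusted p = 0.000797) was the 18th highest of all probe sets tested. It was 2.31 on day 1 and 1.91 on day 2. Without wild type array 1 it was 1.95, below the 2.11 of Icos 1421931_at, and with a pseudocount of 24 the values were 1.73 and 1.74; the difference between the genes was not tested. Pdcd1 was the only family probe set past the threshold under all 13 alternatives tried, with an adjusted p of at most 0.0227.

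Pdcd1 and Ctla4, the inhibitory receptors measured here, are the receptors with a probe set that have an entry in the RefSeq promoter table. The 250 bases before their start sites are shown. NFAT motifs are marked, as a probe set of Nfatc1, a transcription factor gene of the calcium pathway, was also called higher in sanroque. Its other tested probe set was not, and the call was lost with median centring, without the filter or without the variance trend. Any action of Nfatc1 on Pdcd1 or Ctla4 was not tested. Capitals mark each match to GGAAA, the core bound by NFAT factors, on either strand (as TTTCC where it lies on the other strand). Coordinates are of build GRCm38.p6, chr1:94052554-94052803 on the minus strand for Pdcd1 and chr1:60908775-60909024 on the plus strand for Ctla4, each written 5′ to 3′ along the gene.
Pdcd1: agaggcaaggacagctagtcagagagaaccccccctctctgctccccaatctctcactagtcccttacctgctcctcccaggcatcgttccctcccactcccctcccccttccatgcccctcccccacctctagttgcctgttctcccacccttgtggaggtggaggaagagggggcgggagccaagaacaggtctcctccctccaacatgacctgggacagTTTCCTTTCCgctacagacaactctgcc
Ctla4: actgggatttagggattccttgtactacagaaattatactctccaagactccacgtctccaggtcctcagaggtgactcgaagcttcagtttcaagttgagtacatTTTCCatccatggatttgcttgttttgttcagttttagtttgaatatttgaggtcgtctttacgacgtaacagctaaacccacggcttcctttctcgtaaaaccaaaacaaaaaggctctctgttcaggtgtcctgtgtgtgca
The Pdcd1 window has 2 matches, which begin 28 and 23 bases before the start and abut, and the Ctla4 window has 1, which begins 144 bases before it. GGAAA or its complement occurs in 55.6% of all 32851 windows of this length, so a match is no distinction. Neither window has a match to the AP-1 motif TGANTCA, found in 6.75% of windows, nor to the STAT motif TTCNNNGAA, found in 7.02%, both searched on both strands. In all, 7 of the 10 family genes have an entry in that table.

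The ligands are mainly made by antigen-presenting cells, and in these CD4 cells no ligand probe set passed the test in either direction. Of their 10 probe sets 5 were tested, from 4 of the 5 genes. The limma count was 0 of 5, where 0.67% of all tested probe sets rose and 0.39% fell. It was 0 of 5 also with the day as a block, against 3.59% and 2.68%. With shares this small, 0 of 5 is no distinction. At an unadjusted p under 0.05, 0 were higher and 1 was lower, against 5.62% and 4.27%. Icosl, the ligand of Icos, was the tested member whose genotypes separated with sanroque the lower. Its probe set 1419212_at read 89.2 and 63.1 in wild type and 59.5 and 33.2 in sanroque, a margin of only a few units between the groups. The log2 change was -0.68 (standard error 0.303, 95% confidence interval -1.35 to -0.01, limma adjusted p = 0.494; 0.0565 with the day as a block), with -0.54 on day 1 and -0.82 on day 2. Without sanroque array 2 the change was -0.31, and without sanroque array 1 it was -1.05. The other probe set of Icosl, 1426087_at, lay below the filter with 23.3 and 11.1 in wild type and 23.7 and 11.1 in sanroque, where the day and not the genotype separated the arrays.

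Cd86, a ligand shared by Cd28 and Ctla4, had a pair of tested probe sets with small positive changes. Probe set 1420404_at read 44.1 and 64.6 in wild type and 65 and 65.6 in sanroque (log2 change 0.26, limma adjusted p = 0.847). Probe set 1449858_at read 36.8 and 25.6 in wild type and 39 and 44.8 in sanroque (0.38, limma adjusted p = 0.804). The sanroque arrays were the brighter in both, but 1 wild type array lay next to them each time, array 2 in the former and array 1 in the latter. The 95% confidence intervals ran from -0.31 to 0.83 and from -0.34 to 1.10. Without wild type array 1 the changes were 0.01 and 0.60, and without wild type array 2 they were 0.51 and 0.16.

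Cd80, the other ligand of this pair of receptors, had 4 probe sets, all below the filter. The brightest, 1451950_a_at, missed it narrowly with a mean of 21.1 and read 11.8 and 18.1 in wild type and 32.1 and 22.4 in sanroque. In a fit without the filter its log2 change was 0.67 (limma adjusted p = 0.793). The other 3 probe sets read between 1.6 and 13.5 on every array, with changes in that fit from -0.34 to 0.30.

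The ligands of Pdcd1 are encoded by adjacent genes on chromosome 19. Cd274 read 82.3 and 74.1 in wild type and 81.6 and 79.9 in sanroque, which overlap, with a log2 change of 0.05 (95% confidence interval -0.42 to 0.51, limma adjusted p = 0.978). It turned to -0.046 with each array centred on its median. Pdcd1lg2 read 32.6 and 21.4 in wild type and 56.8 and 30.9 in sanroque, where sanroque was higher within each day but the groups overlapped. Its change of 0.57 (95% confidence interval -0.27 to 1.40) did not pass (limma adjusted p = 0.71; 0.275 with the day as a block). It was 0.18 without sanroque array 1, 0.32 without wild type array 2 and 0.95 without sanroque array 2.

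**Figure D2:**
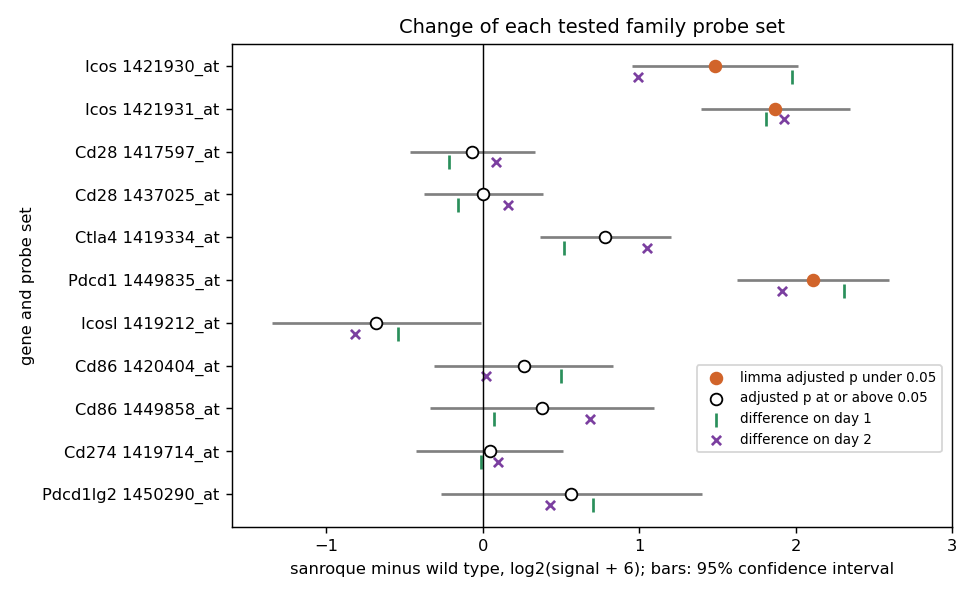
Change from wild type to sanroque of the 11 tested family probe sets on the log2(signal + 6) scale, with 95% confidence intervals as bars, filled points for a limma adjusted p under 0.05, and the differences within day 1 and day 2 as green ticks and purple crosses. Icos (1.48 and 1.87) and Pdcd1 (2.11) are filled, and the interval of Icosl ends at -0.01.

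Read by same-numbered pair, 8 of the 11 tested probe sets had the same sign on both days, as did 61.9% of all tested probe sets. The exceptions were both probe sets of Cd28 and that of Cd274. For Ctla4 and Icosl the difference was larger in size on day 2, and for Pdcd1 and Pdcd1lg2 on day 1.

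**Figure D3:**
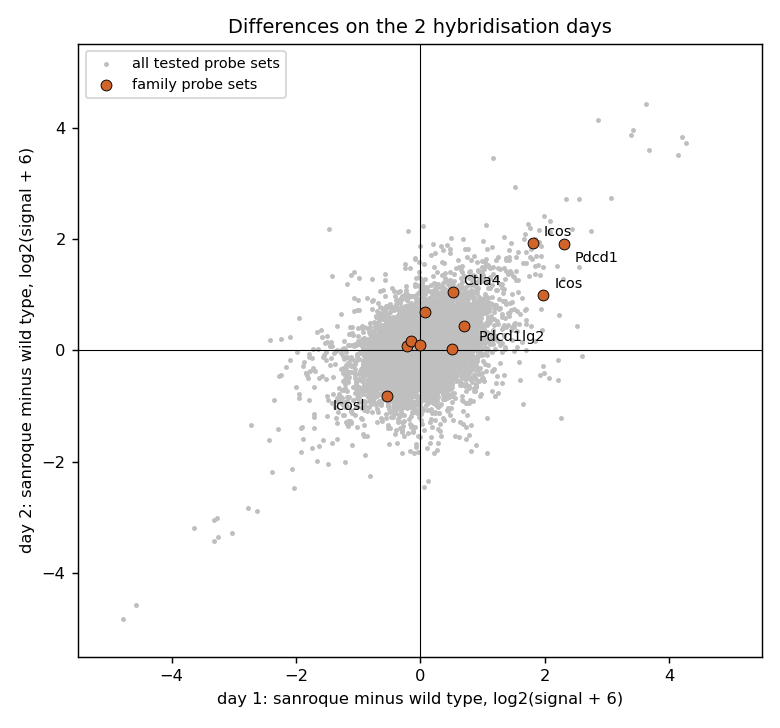
Difference between sanroque and wild type on day 1 (horizontal) against day 2 (vertical), both on the log2(signal + 6) scale; grey points are all 13579 tested probe sets and orange points the 11 of the family. Pdcd1 (2.31 and 1.91) and Icos 1421931_at (1.81 and 1.92) lie at the upper right edge of the grey cloud, and Icosl (-0.54 and -0.82) lies at lower left.

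Of 68 genes listed for the signalling, traffic and RNA control of these receptors, 45 were tested by their brightest probe set, 7 lay below the filter and 16 had no probe set naming them alone. By limma 2 rose and 0 fell, beside 0.776% and 0.331% of all 7858 genes so represented; at an unadjusted p under 0.05, 5 were higher and 4 lower, beside 6.16% and 3.44% of all these genes. The median log2 change was 0.02, against 0.015 over all tested probe sets. In the blocked fit 4 rose and 3 fell, against 3.92% and 2.13%. Nfatc1 read 188.8 and 150.9 in wild type and 336.4 and 352.1 in sanroque, a log2 change of 1.00 (limma adjusted p = 0.0298). Its other tested probe set had 0.55 (0.334). The call of Nfatc1 was lost with median centring (limma adjusted p = 0.192), without the filter (0.0872) and without the variance trend (0.21). Il21, a cytokine of follicular helper T cells, read 16.1 and 13.4 in wild type and 78.9 and 56.8 in sanroque (1.82, limma adjusted p = 0.0307). Both wild type arrays lay under the filter mean of 21.3, so Il21 was tested only through the sanroque arrays. It did not pass without the filter (limma adjusted p = 0.168) or without the variance trend (0.0507). Neither passed without sanroque array 1 (adjusted p = 0.0608 for Nfatc1 and 0.259 for Il21) or without sanroque array 2 (0.102 and 0.0649), and Nfatc1 did not without wild type array 2 (0.0787).

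Among further molecules related to the family, Lag3, an inhibitory receptor for MHC class II, read 7.2 and 13.3 in wild type and 39.9 and 54.1 in sanroque. Its log2 change of 1.72 did not pass by limma (adjusted p = 0.122) but did with the day as a block (0.00159). Both wild type arrays lay under the filter mean of 21.3, so Lag3 was tested only through the sanroque arrays. Tnfrsf14, the ligand of Btla, lay below the filter, with 2.1 to 3.7 on the 4 arrays.

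The phosphatases that Pdcd1 and Btla recruit stood on opposite sides of 0. Ptpn11 (SHP-2) read 208.1 and 297.9 in wild type and 362.1 and 435.2 in sanroque, a log2 change of 0.66 (limma adjusted p = 0.255; 0.00519 with the day as a block). Ptpn6 (SHP-1) read 582.8 and 585.9 in wild type and 264.9 and 448 in sanroque, a change of -0.75 (0.236; 0.00245 with the block). Another probe set of each gave 0.17 and -0.06, with overlapping genotypes. The change of Ptpn6 was -0.38 without sanroque array 1 and -1.12 without sanroque array 2. That of Ptpn11 was 0.91 without wild type array 2 and 0.41 without wild type array 1. Cbl, a ubiquitin ligase gene, had the lowest change of the list at -1.20 (limma adjusted p = 0.554; 0.0101 with the block). Wild type array 2 read 307.3, against 48.3 on wild type array 1 and 50.2 and 51 in sanroque. Without wild type array 2 the change was 0.06, and without wild type array 1 it was -2.47. Another Cbl probe set had -0.80 (limma adjusted p = 0.653, and 0.182 with the block), with wild type array 2 again the brightest at 77.1.

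Of the kinases and adaptors next to the receptors, such as Fyn, Grap2 and Pik3r1, 0 of 15 passed by limma, also with the block. Of all genes 0.776% rose and 0.331% fell, and 3.92% and 2.13% with the block. At an unadjusted p under 0.05, 0 of the 15 were higher and 1 lower, against 6.16% and 3.44%. These counts are near those shares. The list's 5 tested RNA regulators had a median log2 change of -0.29, and by limma 0 passed. At an unadjusted p under 0.05, 0 were higher and 2 lower, Ddx6 and Zfp36l2, against 6.16% and 3.44% of all genes. Ddx6 had -0.47 (limma adjusted p = 0.39, and 0.0504 with the block). Its other tested probe sets had -0.75 and -1.11, with wild type array 2 (471.3 and 363.3) far above the other arrays. Zfp36l2, of a family of proteins that destabilise AU-rich mRNAs, read 2224.9 and 2094.3 in wild type and 1379.9 and 1504.1 in sanroque (-0.58, limma adjusted p = 0.22, and 0.00725 with the block). Its other tested probe set had -0.86 (limma adjusted p = 0.25, and 0.00597 with the block). No probe set named Rc3h1 alone, so the mutated gene is not analysed here.

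Icos, Ctla4 and Pdcd1 are also transcripts of activated, follicular helper and regulatory T cells, and some genes of these cells rose in sanroque too. By limma 6 of 9 tested genes rose on the activated or memory list, 3 of 9 on the follicular helper list and 2 of 8 on the regulatory list, and 0 fell, against 0.776% and 0.331% of all genes. At an unadjusted p under 0.05, 8, 7 and 6 were higher and 0 lower, against 6.16% and 3.44%. In the blocked fit 8, 4 and 5 rose and 0 fell, against 3.92% and 2.13%. The lists were chosen with earlier results of these data known, so the shares of all genes are no independent comparison. The medians of their log2 changes were 0.98, 0.82 and 0.76. Anxa2 (1.17, limma adjusted p = 0.0142), Lgals3 (1.11, 0.0434) and S100a4 (1.10, 0.0253) led the first list. Sostdc1 (2.90, limma adjusted p = 0.0134), Il21 and Cxcr5, the follicle homing receptor (1.24, 0.0133), were those that rose in the second, while Bcl6, its lineage factor, had 0.71 and did not pass (0.423). Sostdc1 read 2.4 and 4.6 in wild type and 63.9 and 65 in sanroque. Like Il21, it passed the filter on mean signal only through the sanroque arrays. The log2 change of Sostdc1 was 3.91 with a pseudocount of 1 and 1.69 with 24. Nrp1 (1.21, limma adjusted p = 0.0246) and Izumo1r (1.00, 0.0172) rose in the third, and Foxp3, the regulatory lineage factor, had 0.64 and did not pass (0.468). Without sanroque array 2 the calls of Anxa2 (adjusted p = 0.0719), Lgals3 (0.246), S100a4 (0.149), Sostdc1 (0.102) and Izumo1r (0.0957) were lost, without sanroque array 1 those of Sostdc1 (0.089) and Nrp1 (0.0771), and without wild type array 2 that of Lgals3 (0.0561). The 3 counts were 1, 3 and 1 with median centring, 4, 3 and 1 after quantile normalization, 0, 0 and 1 without the filter, 0, 1 and 0 without the variance trend, 4, 1 and 1 without sanroque array 1, and 0, 1 and 1 without sanroque array 2. With median centring the calls of S100a4 (adjusted p = 0.197), Lgals3 (0.0708) and Izumo1r (0.294) were lost, and after quantile normalization those of Lgals3 (0.0714) and Nrp1 (0.0513). The part of these cells in the changes of Icos, Ctla4 and Pdcd1 was not tested.

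Markers of cells that carry the ligands were present. Of 12 tested B cell genes 0 passed by limma, with 0 higher and 1 lower at an unadjusted p under 0.05, and with the day as a block Cr2, a complement receptor, fell (-0.73, limma adjusted p = 0.216 without and 0.0127 with the block). The signals of the 13 B cell genes with a probe set summed to 1825 and 1838.3 in wild type and 1747.4 and 1884.9 in sanroque, so the groups overlapped. Cd79a read 231.3 and 244.1 in wild type and 205.9 and 198 in sanroque, and Pax5 was below the filter. Of 9 tested genes of dendritic cells or macrophages 0 passed by limma, against the same 0.776% and 0.331%. At an unadjusted p under 0.05, 2 were higher and 0 lower, against 6.16% and 3.44%. With the block 1 rose and 0 fell, against 3.92% and 2.13%. The 1 was Csf1r, the macrophage growth factor receptor (0.50, limma adjusted p = 0.369 without and 0.0389 with the block). Its other tested probe sets had 0.05 and 0.18 and did not pass (limma adjusted p = 0.924 and 0.674 with the block). The 13 of this list with a probe set summed to 1452.4 and 1719.5 in wild type and 1889 and 1815.8 in sanroque, which did not overlap. This separation rests on Csf1r 1419872_at. It read 363.2 and 461.4 in wild type and 584.8 and 574.8 in sanroque. Itgax read 49.8 and 26 in wild type and 48.4 and 45.7 in sanroque, and Itgam, Flt3, Zbtb46 and Xcr1 were below the filter. The part of these cells in the values of Icosl, Cd80, Cd86, Cd274 and Pdcd1lg2 was not tested.

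Of 7 tested neutrophil genes, 3 rose and 0 fell by limma, beside 0.776% and 0.331% of all genes. With the block 5 rose and 0 fell, beside 3.92% and 2.13%. This list too was chosen with earlier results of these data known. Those that rose without the block were Ngp (2.20, limma adjusted p = 0.000329), S100a8 (1.28, 0.00716) and S100a9 (1.18, 0.00957). Of these S100a8 (0.128) and S100a9 (0.137) did not pass without the variance trend, nor S100a9 with median centring (0.0881). Camp (2.02, limma adjusted p = 0.0782) and Ltf (1.30, 0.079) did not pass without the block but did with it (0.000186 and 0.00122). Camp read 4.5 and 17.2 in wild type and 55.2 and 59.1 in sanroque, so it was tested only through the sanroque arrays. Csf3r, the receptor of the neutrophil growth factor, had 0.06 and Mmp9 0.84, and neither passed (limma adjusted p = 0.978 and 0.661). The median log2 change of the 7 was 1.28. The 9 with a probe set summed to 564.7 and 558.2 in wild type and 1355.5 and 1427.6 in sanroque. On the list for CD8 T or NK cells 1 of 9 tested rose and 0 fell by limma, beside 0.776% and 0.331% of all genes. With the block 2 rose and 0 fell, beside 3.92% and 2.13%. The 1 was the granzyme gene Gzmk (1.32, limma adjusted p = 0.0462). Its call was lost without the variance trend (0.191) or the filter (0.215). It was also lost without sanroque array 1 (change 1.30), sanroque array 2 (1.34) or wild type array 2 (1.02). Cd8a had 0.30 (limma adjusted p = 0.789), Prf1 -0.41 (0.603) and Klrd1 -0.26 (0.786). The median log2 change was -0.02, and 4 of the 9 were above 0. The list summed to 675.3 and 614.1 in wild type and 704.9 and 756.7 in sanroque. The part of these cells in the family's changes was not tested.

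**Figure D4:**
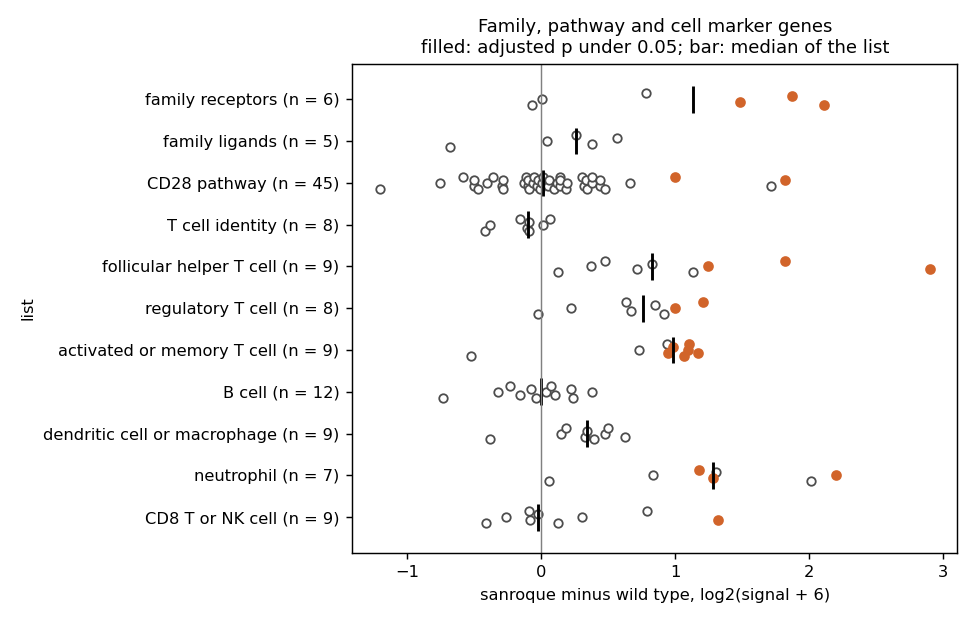
Change from wild type to sanroque on the log2(signal + 6) scale for the tested probe sets of the family and for the genes of the pathway and cell marker lists, with 1 point per probe set or gene, filled where the limma adjusted p is under 0.05, and a black bar at each list's median. The family's receptors are spread from -0.07 to 2.11, and the medians run from -0.10 for T cell identity to 1.28 for neutrophil genes.

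Genes whose 4 values lay nearest to those of Icos and Pdcd1 were found by the root mean square difference of the log2 values, each taken relative to the wild type mean, over the 4 arrays and 12413 named probe sets. Nearest to Icos 1421931_at were Ccnb2, a mitotic cyclin gene (0.102), Il21 (0.110), the exchange factor gene Tiam1 (0.120), Map7 (0.120) and Uri1 (0.174). Nearest to Pdcd1 were Bpifa2 (0.151), Ngp (0.179), Lcn2, a neutrophil granule gene (0.202), Map7 (0.234) and an Ighm probe set (0.243). With 4 arrays in 2 genotypes, this measure mainly compares the sizes of the changes.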

How the data were processed

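CD4 cell RNA of 2 wild type and 2 sanroque samples was measured, 1 array each; genotype and number came from the titles. Per array, 1 deposited intensity was read for each probe set. The chip type is known per the file headers; how probes were summarised and background corrected is not given in the sources used here. No value was negative, and the trimmed means (2nd to 98th percentile) were alike, so no further scaling was applied. Detection calls were not used.

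Signals were taken as log2(signal + 6), 6 being the rounded 20th percentile of all values, which understates changes where signals are low. Left out were 64 controls and all probe sets whose mean was under the 40th percentile (21.3). The mean was taken over all 4 arrays, so a probe set dim in 1 genotype could be tested through the other alone. Gene symbols came from the platform annotation, updated by gene identifier through RefSeq; 20380 probe sets had 1 symbol, 691 had several and 1555 were not listed. Genotypes were compared by limma 3.58.1 in R 4.3.3 (lmFit, eBayes with a variance trend, two-sided), without covariates, adjusted over all probe sets tested. The fit was checked on 10 simulated sets, in which 200 of the 13579 probe sets were changed and no day effect was put in. It called 0.448%, 2.39% and 54.7% of log2 changes of 0.5, 1 and 2, so a change of 1 was seldom called in these sets. The mean false share of the calls was 3.16%, and 5.54% with the replicate block. The simulated spread was drawn by a set rule and need not match that of the real arrays. There some changes near 1 were called, such as those of Izumo1r and Nfatc1 (1.00 each), so these shares need not hold for the real values. Confidence intervals come from the moderated fit and are not adjusted for multiple testing. List genes were represented by their brightest probe set past the filter.

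Same-numbered arrays shared a hybridisation day, so the numbers pair the arrays; deviations from the genotype means correlated with 0.392 within pairs. Named were all family probe sets, Cd4, and in the pathway list the genes past the test and the 3 largest changes each way. In the marker lists up to 3 genes past the test and 7 defining markers were named (a further one is not reported here), and last the 5 probe sets nearest to Icos and to Pdcd1. Others (Ptpn11, Tnfrsf14, Ddx6, Cd247, Cd5, Csf3r, Mmp9, Prf1, Klrd1, the remaining marker genes named below the filter or with a block call, and Nrp2) were chosen after seeing their values. The members and lists were chosen with earlier results of these data known. Alternatives were quantile normalization, median centring, a pseudocount of 1 or 24, a filter at the 60th percentile or none, a fit without variance trend, a block for the replicate number or for the titles' wording (no. or pt), and each array left out. With 1 array left out, 1 genotype is a single array. The p-values of these fits and of the blocked fits rest mainly on the spread shared across probe sets, so a pass there adds little replicate evidence.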

Additional observations from a re-analysis of the deposited data

How the results depend on the processing

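Of 141 values of the 11 tested family probe sets under 13 alternatives (with 2 dim ones left out by the filter at the 60th percentile), 129 kept their direction and their side of the threshold, 3 lost the call (Icos, above), 2 gained it (Ctla4, above) and 7 turned sign, all of Cd28 or Cd274 near 0 and none of them past the threshold. The sign turned for Cd28 1417597_at after quantile normalization (0.008) and without wild type array 1 (0.094), and for Cd28 1437025_at with median centring (-0.086), without wild type array 2 (-0.089) and without sanroque array 2 (-0.062). For Cd274 it turned without wild type array 2 (-0.026) and with median centring (-0.046). With 1 array left out the values of these probe sets ran from -0.227 to 0.094, from -0.089 to 0.097 and from -0.026 to 0.115. The cause of these turns was not tested. The count of family probe sets called was 1 without the variance trend and 3 to 4 with 1 array left out. Over all probe sets the count was 56 without the filter, where more probe sets were tested, 47 without the variance trend, 852 with the replicate block in place of 144, and 105 to 356 with 1 array left out, the highest without wild type array 1. Without sanroque array 2, 52 of the 105 were higher. Of the pathway genes 1 was called with median centring, 0 without the filter, 1 with the filter at the 60th percentile, 0 without the variance trend, 7 with the replicate block, and 0 to 3 with 1 array left out. Of the marker genes of other cells 4 were called, 1 without the variance trend, 9 with the replicate block and 3 to 5 with 1 array left out. The causes were not tested. With 2 arrays per genotype, changes as small as those of Cd86 and Cd274 could not be resolved, and probe sets as dim as those of Cd80 lie near the low end of the signal range.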
